A study of Mus musculus with 3 samples.

Results

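Actin, thymosin and actin-binding genes are described here across bone marrow cells of mice. They are the 7 genes Tmsb4x, Tmsb10, Actb, Actg1, Pfn1, Cfl1 and Coro1a, found by symbol among the 32285 genes of the count tables, and all 7 were detected in each population described. The series profiled bone marrow by droplet single-cell RNA sequencing, with 1 library for each of 3 genotypes, to ask how marrow progenitors carrying either of 2 changes in RAS-related protein turnover differ from a control. Live cells without CD3, CD11b, Gr1, B220 or Ter119 on their surface were sorted, which leaves mostly stem and progenitor cells. The control was Rit1M90I/+Mx1Cre-, which has the Rit1 M90I allele without Cre recombinase; the sample title names it wild type. The second library was Lztr1fl/fl;Mx1Cre+, in which Cre removes Lztr1, and the third was Rit1M90I/+;Mx1Cre+, called Rit1-M90I below. All animals, controls included, were 8 weeks old when they received pIpC, an inducer of interferon and so of the Mx1 promoter that drives Cre, in 3 doses of 12 mg/kg, and marrow was taken 4 weeks later. Since Cre is present in both mutant libraries alone, its effect and that of the altered gene cannot be told apart. The labels do not give the number of mice behind a library.

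Actin is the protein of the thin filaments that give a cell its shape and let it crawl, and blood cells hold it as a pool of single subunits beside the filaments. Beta-thymosins hold single subunits in reserve, profilin hands them to growing filament ends, cofilin cuts old filaments, and coronin 1A sits on filaments in white blood cells, where its loss is known to impair T cell survival. Actin genes are classic targets of serum response factor, which binds a short motif called the CArG box. Its coactivators of the Mrtf family are held in check by free actin subunits.

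The members lie apart in the mouse genome, and each is annotated as protein coding in GENCODE on the mm10 build. Tmsb4x (ENSMUSG00000049775) spans chrX:167207093-167209315, Tmsb10 (ENSMUSG00000079523) chr6:72957347-72958748 and Actb (ENSMUSG00000029580) chr5:142903115-142906754. Actg1 (ENSMUSG00000062825) spans chr11:120345690-120348542 and Pfn1 (ENSMUSG00000018293) chr11:70651850-70654644. Cfl1 (ENSMUSG00000056201) spans chr19:5490455-5495201 and Coro1a (ENSMUSG00000030707) chr7:126699773-126707787. All but Cfl1 are on the minus strand. Genes of this kind have processed copies elsewhere in the genome and Actb and Actg1 encode nearly the same protein, so reads can be split between copies and each value is uncertain to that extent.

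RefSeq promoters (GRCm38.p6, 250 bases before to 50 after a start site) were found for 6 members, with 9 entries in all, and Actb is named only. The 3 below are shown because Actg1 is the member with a CArG box in this window, printed in capitals, and because Tmsb4x and Coro1a were the members whose level varied most between cell populations. Each is written 5′ to 3′ on the gene's own strand.
Actg1, chr11:120348446-120348745, minus strand: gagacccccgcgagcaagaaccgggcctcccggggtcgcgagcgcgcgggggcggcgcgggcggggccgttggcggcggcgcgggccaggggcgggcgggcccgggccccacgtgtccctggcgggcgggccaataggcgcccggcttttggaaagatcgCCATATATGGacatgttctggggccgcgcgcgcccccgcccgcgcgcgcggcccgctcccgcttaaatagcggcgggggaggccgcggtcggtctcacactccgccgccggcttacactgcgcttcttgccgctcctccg
Tmsb4x, chrX:167209169-167209468, minus strand: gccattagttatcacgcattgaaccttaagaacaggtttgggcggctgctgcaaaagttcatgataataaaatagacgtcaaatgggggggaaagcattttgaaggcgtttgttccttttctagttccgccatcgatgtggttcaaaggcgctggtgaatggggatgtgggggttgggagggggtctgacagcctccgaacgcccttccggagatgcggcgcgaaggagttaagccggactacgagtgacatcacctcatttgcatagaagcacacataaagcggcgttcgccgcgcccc
Coro1a, chr7:126704767-126705066, minus strand: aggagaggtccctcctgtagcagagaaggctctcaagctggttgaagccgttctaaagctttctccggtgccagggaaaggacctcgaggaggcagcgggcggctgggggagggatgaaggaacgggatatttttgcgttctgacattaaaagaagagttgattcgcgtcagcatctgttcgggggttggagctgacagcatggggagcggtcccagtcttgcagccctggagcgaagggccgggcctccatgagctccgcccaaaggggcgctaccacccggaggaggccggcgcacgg

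The CArG box of Actg1 begins 90 bases before the start site. The motif was found, with either strand searched, in 1.63% of 32851 RefSeq promoters of this length. TATAAA was in none of the members' 9 entries and in 13.6% of all promoters. GGGCGG, a motif of GC-rich promoters, was in all 9 entries and in 35.7% of all promoters. CCAAT was in the Actg1 and Cfl1 entries and in 37.4% of all promoters. These are matches of letters in a window and not sites of binding.

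The deposited libraries held 67541728 UMIs (unique mRNA tags) in 8476 barcodes for the control, 30398349 in 3014 for the Lztr1 knockout and 88560148 in 11573 for Rit1-M90I. After filters on low-quality barcodes and doublets, 7273, 2338 and 9367 cells remained, and libraries shared 5 to 19 cell barcodes. Lztr1 measured 17.3 CPM in the control, 6.34 CPM in Lztr1 knockout cells and 15.2 CPM in Rit1-M90I over all kept cells. A cell was put in a population by its own marker genes, none of which is a member, and 91.9% to 94.5% of cells of a library were placed. Populations are ranges of cells like the named type. The 10 with at least 50 cells in every library are used. By fold over the other cells their leading genes included Car1 and Klf1 in erythroid progenitor-like, Mcpt8 and Prss34 in basophil and mast cell-like, Cd3d and Trbc2 in T cell-like and Siglech in plasmacytoid dendritic cell-like cells. T cell-like cells remained, 587, 59 and 365 in the 3 libraries, although CD3 on the surface was sorted against. Levels are UMIs of a gene per 1000000 UMIs of a population (CPM) with an exact Poisson 95% interval. The chemistry counts 1 tag per mRNA, so levels were not divided by gene length. Intervals in the text cover counting error only, and with 1 library a genotype no test of a genotype was possible.

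The thymosin Tmsb4x had the widest range of the 7 genes. In the control it was lowest in erythroid progenitor-like cells, at 203 CPM (196 to 209), and highest in basophil and mast cell-like cells, at 12998 CPM, a ratio of 64.1. T cell-like cells followed at 12272 CPM. The innate lymphoid cell-like population held 7399 CPM. Plasmacytoid dendritic cell-like, neutrophil progenitor-like and monocyte lineage-like cells lay close together at 3856, 3720 and 3687 CPM. Lymphoid progenitor-like cells held 1962 CPM, stem and multipotent-like cells 1862 CPM and plasma cell-like cells 1083 CPM. So T cell-like and basophil and mast cell-like cells carried several times the Tmsb4x of the progenitor-like populations. The same 2 ends of the order were found in the other libraries, with a ratio of highest to lowest of 75.4 in Lztr1 knockout cells and 42.6 in Rit1-M90I. The control ratio of 64.1 was 19.5 in cells of 5000 to 15000 UMIs, 42.9 with doublet calls kept and 195 with clusters in place of gates. T cell-like cells were the highest population with the stricter cell filter, with doublets kept and with hemoglobin, mitochondrial and ribosomal protein genes left out of the total. Among smaller populations, NK cell-like cells held 13213 CPM and megakaryocyte lineage-like cells 5954 CPM in the control.

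Tmsb10, the second beta-thymosin, followed another order. It was again lowest in erythroid progenitor-like cells, at 297 CPM in the control, but its highest level, 4377 CPM, was in T cell-like cells, 14.7 times higher. In cells of 5000 to 15000 UMIs, where T cell-like cells were too few, plasma cell-like cells were lowest and the ratio was 9.31, and plasma cell-like cells were also lowest with a margin required between marker lists. Plasmacytoid dendritic cell-like cells at 2989 CPM and monocyte lineage-like cells at 2384 CPM came next. Basophil and mast cell-like cells, the top population for Tmsb4x, held 1143 CPM of Tmsb10, and neutrophil progenitor-like cells 525 CPM. Lymphoid progenitor-like cells, with 1685 CPM, stood above them.

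The balance of the thymosins therefore depended on the cell. Tmsb10 made up 8.08% of the UMIs of the 2 thymosin genes in basophil and mast cell-like cells of the control and 12.4% in neutrophil progenitor-like cells. It made up 26.3% in T cell-like, 39.3% in monocyte lineage-like, 43.7% in plasmacytoid dendritic cell-like and 46.2% in lymphoid progenitor-like cells. In erythroid progenitor-like cells, where each thymosin was scarce, the share was 59.4%. The granulocytic populations thus carried mostly Tmsb4x mRNA, and lymphoid progenitor-like and monocytic ones carried the pair. Megakaryocyte lineage-like cells, at 8.73%, were close to the granulocytic populations. Both mutant libraries had the same populations at the ends of this order, with basophil and mast cell-like cells at 6.89% and 6.60% and erythroid progenitor-like cells at 55.7% and 45.0%.

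The actins themselves varied less than the thymosins. Actb, which encodes beta-actin, ran in the control from 1093 CPM in plasma cell-like cells to 6974 CPM in T cell-like cells, 6.38 times higher. Between these lay neutrophil progenitor-like cells at 1737 CPM, erythroid progenitor-like cells at 2281 CPM, stem and multipotent-like cells at 2642 CPM and basophil and mast cell-like cells at 4956 CPM. Erythroid progenitor-like cells, at the bottom for both thymosins, thus held more Actb than neutrophil progenitor-like cells in all 3 libraries. Actg1, which encodes gamma-actin, ran from 314 CPM in plasma cell-like cells to 1744 CPM in basophil and mast cell-like cells, a ratio of 5.56. Its share of the UMIs of the 2 actins was smallest in T cell-like cells, at 17.9%, and largest in neutrophil progenitor-like cells, at 30.6%.

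The ratio of thymosin UMIs to actin UMIs also differed between populations. It was 0.176 in erythroid progenitor-like cells of the control, 0.145 in Lztr1 knockout ones and 0.228 in those of Rit1-M90I. It was 0.773, 0.658 and 0.735 in stem and multipotent-like cells. It reached 2.11, 1.88 and 2.15 in basophil and mast cell-like cells and 1.96, 1.89 and 1.96 in T cell-like cells. In every library, erythroid progenitor-like cells were the population with the fewest thymosin tags per actin tag.

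Pfn1 encodes profilin 1. It ran from 366 CPM in plasma cell-like cells to 2003 CPM in T cell-like cells of the control, and 7 of the other 8 populations lay between 794 and 1238 CPM, with erythroid progenitor-like cells at 906 CPM. Cfl1, which encodes the severing protein cofilin 1, had the smallest SD of the members over the populations. Its levels ran from 302 CPM in plasma cell-like cells to 1243 CPM in plasmacytoid dendritic cell-like cells, and 5 of 9 neighbouring pairs in this order had overlapping intervals. Its SD of log2 level over the 10 populations was 0.54, against 1.77 for Tmsb4x. Plasma cell-like cells were lowest for 62.3% of all 2809 genes of at least 50 CPM, beside immunoglobulin genes that took 46.9% of their UMIs in the control. With immunoglobulin genes left out of the total, the lowest population became neutrophil progenitor-like for Actb and erythroid progenitor-like for Actg1. It remained plasma cell-like for Pfn1 and Cfl1, and the ratios of highest to lowest were then 4.02 for Actb, 3.12 for Actg1, 2.91 for Pfn1 and 2.19 for Cfl1. With a margin required between marker lists they were 15.5 for Actg1, 9.0 for Pfn1 and 8.11 for Cfl1, and with clusters 12.6 for Actg1.

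Coro1a, which encodes coronin 1A, was the most varied member after Tmsb4x, with an SD of 1.46. It was at 33.1 CPM in erythroid progenitor-like cells of the control, 27.3 CPM in Lztr1 knockout ones and 40.3 CPM in those of Rit1-M90I. Plasmacytoid dendritic cell-like cells held 1181 CPM and T cell-like cells 1123 CPM in the control, so the range was 35.7 times. It was 14.5 in cells of 5000 to 15000 UMIs, 23.8 with doublet calls kept and 89.0 with clusters, and T cell-like cells were highest with clusters and with the smaller total without hemoglobin, mitochondrial and ribosomal protein genes. Innate lymphoid cell-like, monocyte lineage-like and basophil and mast cell-like cells followed at 876, 774 and 750 CPM, and stem and multipotent-like cells held 400 CPM. Megakaryocyte lineage-like cells, rich in Tmsb4x, held only 174 CPM of Coro1a.

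**Figure D1:**
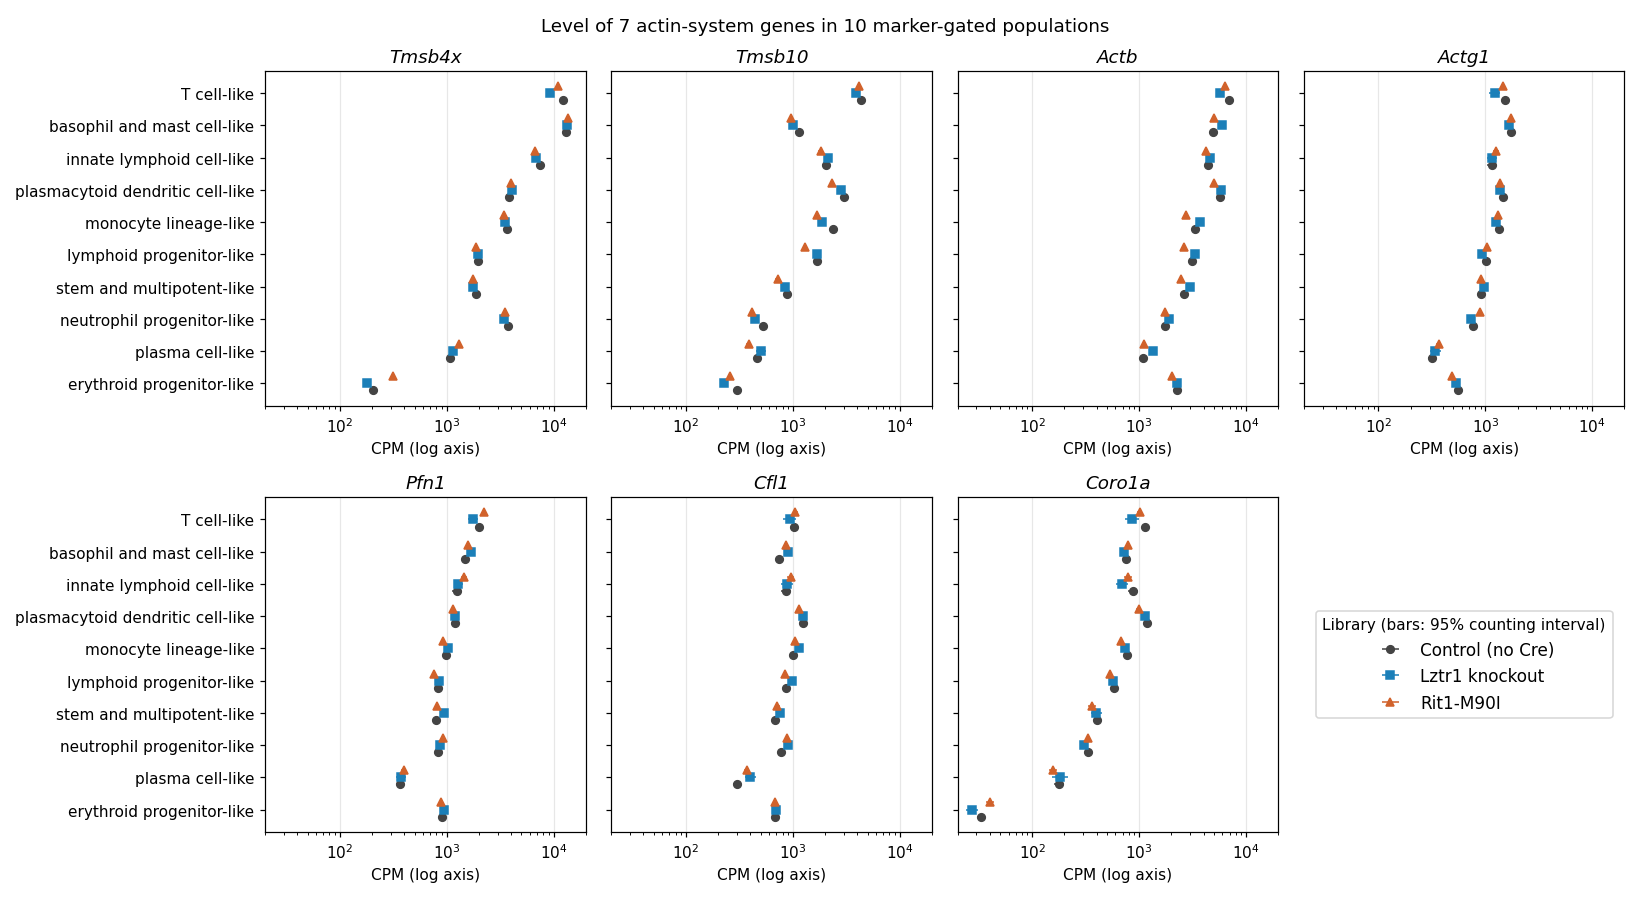
Level of each member (horizontal log axis, CPM) in 10 marker-gated populations (vertical) of the control, Lztr1 knockout and Rit1-M90I libraries, with 95% Poisson intervals for counting error. Tmsb4x and Coro1a run from 203 to 12998 CPM and from 33.1 to 1181 CPM in the control, while Cfl1 stays between 302 and 1243 CPM, and the 3 libraries lie close together.

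**Figure D2:**
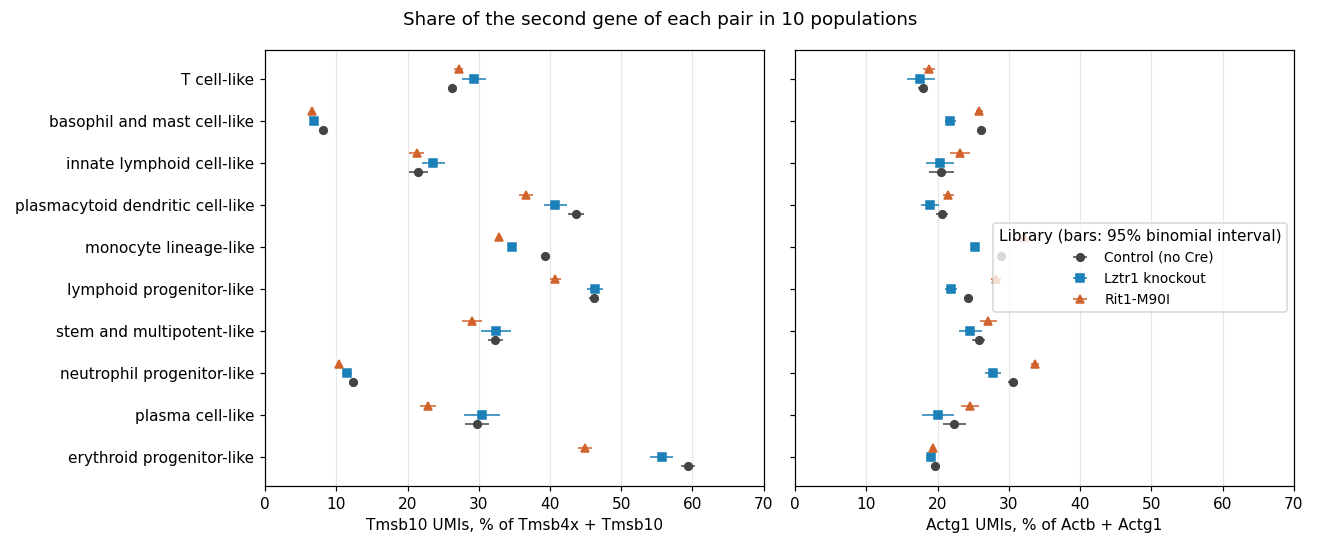
Percent of thymosin UMIs that are Tmsb10 (left) and percent of actin UMIs that are Actg1 (right) in each population and library, with exact binomial 95% intervals. Tmsb10 runs from 8.08% in basophil and mast cell-like to 59.4% in erythroid progenitor-like cells of the control, and Actg1 from 17.9% to 30.6%.

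Levels of some members ran together over the 10 populations. In the control, Pearson's r of log2(CPM + 10) was 0.93 for Actb with Pfn1, 0.91 for Actb with Actg1, 0.90 for Tmsb10 with Coro1a and 0.89 for Tmsb4x with Coro1a. It was 0.46 for Tmsb4x with Cfl1. These describe 10 points that share a library and the totals of each population, and no p-value is attached. Plasma cell-like cells, the lowest population for Actb, Actg1, Pfn1 and Cfl1, are among the 10 points, and r without them was not computed. Of 4952 genes of at least 50 CPM in some population, those most like Actg1 were Flna, an actin crosslinker, and Actr2, a subunit of the Arp2/3 complex that starts filament branches, each with r of 0.97, as had Ccdc12. The gene with the pattern nearest to Coro1a was Sh3bgrl3 (r = 0.97), followed by Laptm5 and Rcsd1 at 0.96. For Tmsb4x they were S100a13, Pxk and Myo1f, a class I myosin of white cells, all with r of 0.96. For Pfn1 they were Nudcd3, Capza1, which caps filament ends, and Sugt1, at 0.98, 0.97 and 0.97. For Tmsb10 they were Tuba1a, Klrb1f and Ifnar1, at 0.95 each. For Actb they were Flii, Cklf and Commd8, at 0.97 each. For Cfl1 they were Fam89b, Ppp1ca and Ttc7, at 0.97, 0.95 and 0.95. All these genes were picked for the highest r in the control, which favours high values. In the Lztr1 knockout and Rit1-M90I, r was 0.76 and 0.90 for Nudcd3 with Pfn1 and 0.67 and 0.89 for Ttc7 with Cfl1. For Sh3bgrl3 with Coro1a it stayed at 0.98 in both.

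Erythroid progenitor-like cells held low levels of several members. They were compared with the median of the 8 other populations, progenitor-like and mature, leaving out plasma cell-like cells. Tmsb4x was at 203 CPM against a median of 3788 CPM in the control, 179 against 3812 CPM in Lztr1 knockout cells and 318 against 3764 CPM in Rit1-M90I. Coro1a was at 33.1 against 762 CPM in the control. Actg1 was at 559 against 1246 CPM, 530 against 1192 CPM and 488 against 1280 CPM. In the control Pfn1, at 906 against 1087 CPM, and Cfl1, at 672 against 860 CPM, were much closer to the other cells. Pfn1 there lay above the 794, 824 and 834 CPM of stem and multipotent-like, lymphoid progenitor-like and neutrophil progenitor-like cells. This order did not hold throughout. Pfn1 in erythroid progenitor-like cells was at 933 CPM in the Lztr1 knockout, below stem and multipotent-like cells at 948 CPM. In Rit1-M90I it was at 887 CPM, below neutrophil progenitor-like cells at 920 CPM. In all 3 libraries, 4 of the 7 members, the thymosins, Actg1 and Coro1a, were at or below 0.5 times the median of the others, where 15% of 2928 genes with a mean of at least 50 CPM were. Erythroid progenitor-like cells were the lowest of the 9 populations in every library for 5 of 7 members, and for 14.3% of all genes. The same levels had already shown this population to be the lowest for Tmsb4x, Tmsb10 and Coro1a. Both counts of members therefore describe the data and are no test.

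Other genes of actin regulation were counted in the same way, from a list chosen with earlier results of these data known. Of 80 listed genes, 54 had a mean of at least 50 CPM, and 28 of these (51.9%) were at or below 0.5 times the median of the other populations in all 3 libraries, while none was at 2 times or more. Listed genes under that mean were not counted, and they went both ways. In the control Scin was at 11.9 CPM in erythroid progenitor-like cells against 2.55 CPM, and Myo1g at 4.12 against 57.9 CPM. Lcp1, which encodes the bundling protein L-plastin and was among the 28, was at 15.7 CPM in erythroid progenitor-like cells against 379 CPM in the control. Of the 9 measured subunits of the Arp2/3 complex, 3 passed, and Arpc1b did so at 83.3 against 512 CPM whereas Arpc3 was at 425 against 465 CPM. The other coronins Coro2a and Coro7 passed as Coro1a did, at 3.53 against 86.7 CPM and 16.5 against 66.8 CPM. Of the ERM proteins that tie filaments to the membrane, Msn passed, while Rdx was higher in erythroid progenitor-like cells, at 213 against 140 CPM.

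**Figure D3:**
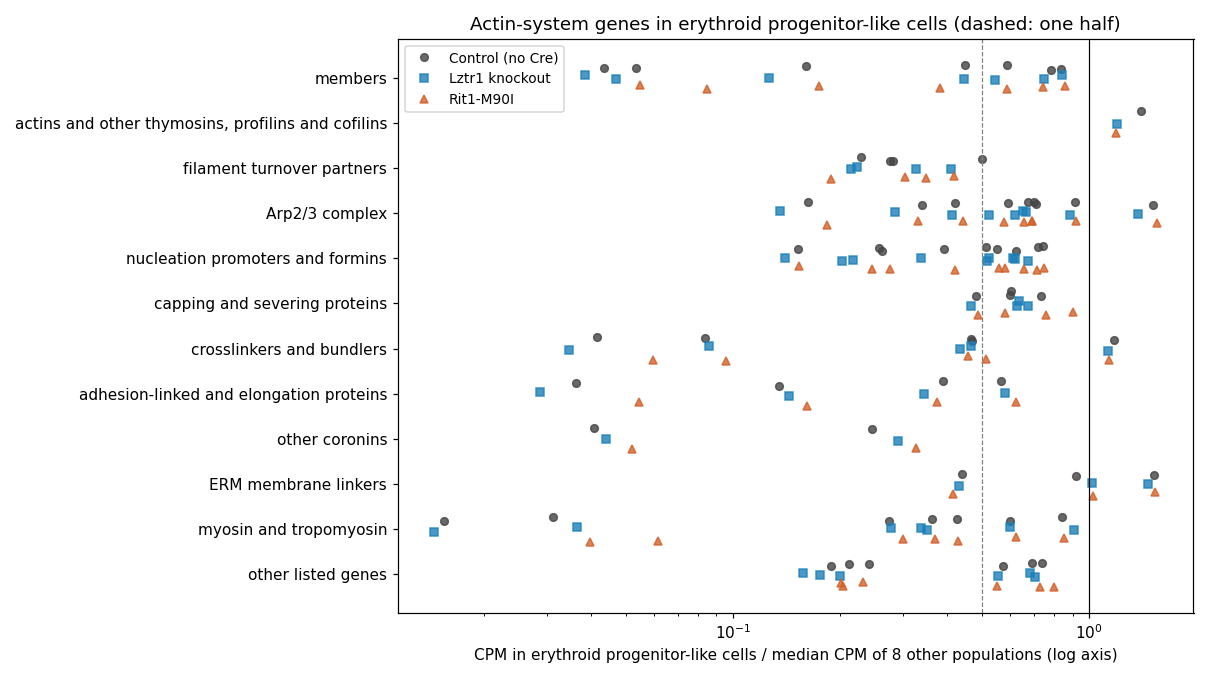
Level in erythroid progenitor-like cells divided by the median of 8 other populations (horizontal log axis) for the 7 members and 54 other genes of actin regulation, by functional group and library. Points left of the dashed line are at or below 0.5 times the median; 4 members and 28 of the 54 other genes are so in all 3 libraries.

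The same genes also differed along the erythroid series itself. Erythroid progenitor-like cells were ordered by how many of 11 erythroblast markers, such as Alas2 and the globins, had a UMI: 0 or 1 (early), 2 or 3 (middle) and 4 to 11 (late). This split was chosen after the data had been seen. The early, middle and late groups held 457, 299 and 443 cells in the control, 146, 119 and 234 in Lztr1 knockout cells and 457, 263 and 450 in Rit1-M90I. Depth was higher along the order, from a median of 6560 to 23131 UMIs a cell in the control.

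Both thymosins and Coro1a were lower at each step. Tmsb4x went from 523 to 219 to 81.3 CPM in the control, from 651 to 221 to 60.8 CPM in Lztr1 knockout cells and from 897 to 267 to 167 CPM in Rit1-M90I. Tmsb10 went from 603 to 368 to 155 CPM, from 575 to 340 to 107 CPM and from 612 to 263 to 153 CPM. Coro1a went from 90.7 to 40.1 to 9.27 CPM, from 97.2 to 45.1 to 5.67 CPM and from 123 to 35.2 to 17.7 CPM. The late over early ratio of Tmsb4x was 0.156 (0.143 to 0.169) in the control, 0.094 (0.082 to 0.106) in Lztr1 knockout cells and 0.186 (0.174 to 0.198) in Rit1-M90I.

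The 2 actins differed along this order. Actb was nearly level, at 2226, 2257 and 2311 CPM in the control, 2296, 2375 and 2190 CPM in Lztr1 knockout cells and 1986, 2014 and 2066 CPM in Rit1-M90I. Actg1 was lower at each step, at 784, 637 and 442 CPM in the control, 801, 662 and 424 CPM in Lztr1 knockout cells and 737, 595 and 371 CPM in Rit1-M90I. The share of Actg1 among actin UMIs went from 26.1% to 16.1% in the control, from 25.9% to 16.2% in Lztr1 knockout cells and from 27.1% to 15.2% in Rit1-M90I. Late erythroid progenitor-like cells thus held actin mRNA that was more purely Actb than any of the 10 populations as a whole. Pfn1 and Cfl1 were slightly higher late than early in each library, with ratios of 1.16 and 1.16 in the control, 1.07 and 1.08 in Lztr1 knockout cells and 1.19 and 1.14 in Rit1-M90I.

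Across all genes, late cells were at least 1.5-fold lower than early cells in all 3 libraries for 8.66% of 2864 genes and at least 1.5-fold higher for 13.4%. Of the members, 4 of 7 were lower (Tmsb4x, Tmsb10, Actg1 and Coro1a) and none was higher. Of 36 measured genes in the list of actin regulators, 13 were lower and none was higher. They included Arhgdib, from 398 to 56.4 CPM in the control, Arpc1b, from 193 to 32.1 CPM, the formin Diaph1, from 198 to 57.4 CPM, and the crosslinker Flna, from 105 to 39.8 CPM. The median log2 difference of the 36 genes was -0.34, -0.40 and -0.45 in the 3 libraries, where the median of all genes was 0.18, 0.16 and 0.19. In cells of 10000 to 20000 UMIs only, Tmsb4x was at 318, 185 and 71.9 CPM and Actg1 at 750, 694 and 380 CPM in the control. Then 3 members were lower by the same rule, since the mean of Coro1a, from 60.8 to 11.5 CPM in the control, was under 50 CPM.

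Markers of some other lineages were lower late than early, and those of others were higher. In the control the summed level of the 10 neutrophil progenitor markers was 214 CPM in early and 29.2 CPM in late cells, that of the 11 stem and multipotent markers 280 and 115 CPM, and that of the 8 basophil and mast cell markers 68.8 and 26.5 CPM. Higher late than early were the summed macrophage markers, at 36.3 and 61.6 CPM, and plasma cell markers, at 111 and 180 CPM. Conventional dendritic cell markers were at 7.10 and 23.2 CPM. The part of cells or RNA of other lineages in the differences of the members was not tested.

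**Figure D4:**
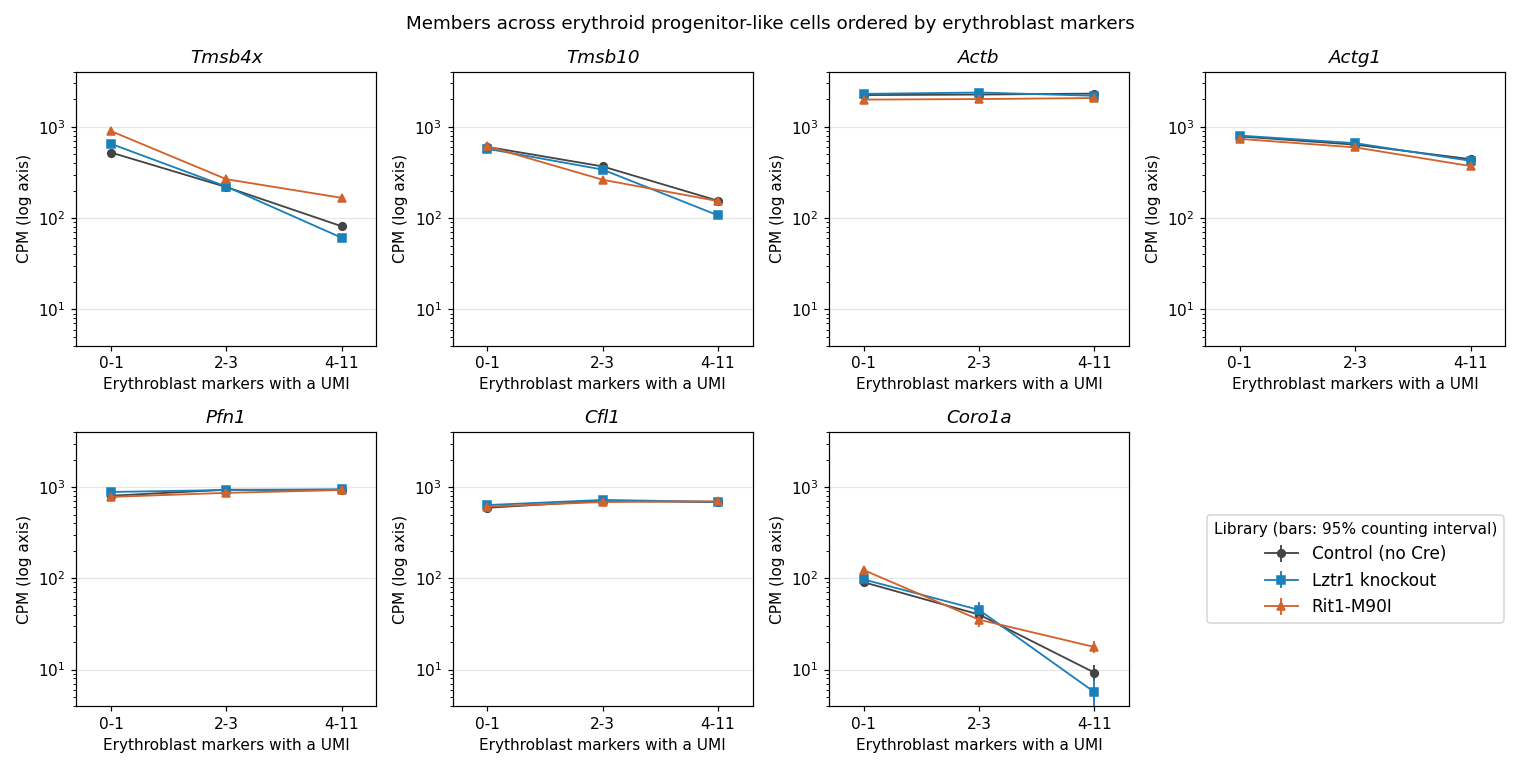
Level of each member (vertical log axis, CPM, 95% Poisson intervals) in erythroid progenitor-like cells with 0 to 1, 2 to 3 and 4 to 11 erythroblast markers, in each library. Tmsb4x, Tmsb10, Actg1 and Coro1a are lower at each step in every library (Tmsb4x from 523 to 81.3 CPM in the control), while Actb is nearly level and Pfn1 and Cfl1 are slightly higher late than early.

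Most member levels differed little between the libraries. Over 7 members and 10 populations, the Lztr1 knockout was above the control in 34 values and below it in 36, and 29 intervals of the ratio held 1. A value was called when it differed by at least 1.5-fold on the log2(CPM + 10) scale, which understates the ratio of scarce genes. None of the 70 values was called higher or lower in Lztr1 knockout cells, where 1.93% of gene by population values of at least 50 CPM were called higher and 1.45% lower. In Rit1-M90I, 27 values were above the control and 43 below, and 23 intervals held 1. Of these 70 values, 1 was called higher and none lower, against 0.791% higher and 0.673% lower over all genes. No share over all genes is given for intervals, here or below, so their counts do not set the members apart. The 2 mutant libraries were set against the same control library, so their ratios share its error.

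Tmsb4x in erythroid progenitor-like cells was the called value. It was at 203 CPM in the control (1199 cells), 179 CPM in Lztr1 knockout cells (499 cells) and 318 CPM in Rit1-M90I (1170 cells). The Rit1-M90I library was thus the high one, with a log2 ratio of 0.62, while 0.459% of genes were called higher in these cells. The median cell held 99.1, 79.2 and 205 CPM and the 90th percentile cell 1097, 845 and 1866 CPM in the same order. The value was 0.18 on the log2 scale in cells of 5000 to 15000 UMIs and 0.53 with a stricter cell filter or 1 more marker required, all under 1.5-fold, and reached 0.88 when clusters replaced the gates. Markers of some other cells were also highest in Rit1-M90I. In erythroid progenitor-like cells of the control, the Lztr1 knockout and Rit1-M90I, summed neutrophil progenitor markers were at 91.9, 70.5 and 150 CPM. Basophil and mast cell markers were at 40.1, 49.3 and 69.8 CPM and monocyte lineage markers at 19.6, 17.8 and 37.0 CPM. Other lists were not highest in Rit1-M90I, such as eosinophil markers, at 18.7, 7.42 and 8.75 CPM, and lymphoid progenitor markers, at 14.9, 25.6 and 23.3 CPM. Basophil and mast cell-like cells held 12998 CPM of Tmsb4x, and the part of such cells or of their free RNA in this value was not tested.

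Tmsb10 was lower in the Rit1-M90I library in 10 of 10 populations, each by less than 1.5-fold, and every interval lay below 1. Of 1157 genes of at least 50 CPM in all 10 populations, 2.51% were below the control in each of them, and 3 had a lower median log2 ratio than the -0.28 of Tmsb10. The widest gap was in monocyte lineage-like cells, at 2384 CPM in the control and 1685 CPM in Rit1-M90I, a log2 ratio of -0.50. Lymphoid progenitor-like cells were at 1685 and 1285 CPM, plasmacytoid dendritic cell-like cells at 2989 and 2307 CPM, and stem and multipotent-like cells at 889 and 717 CPM. T cell-like cells, at 4377 and 4136 CPM, differed least, with a log2 ratio of -0.08. The summed level of neutrophil progenitor markers in monocyte lineage-like cells was 1967 CPM in the control and 2648 CPM in Rit1-M90I, beside a Tmsb10 level of 525 CPM in neutrophil progenitor-like cells of the control, and their part in the Tmsb10 difference was not tested. The 10 populations come from 1 pair of libraries and do not replicate each other. In cells of 5000 to 15000 UMIs, Tmsb10 was below the control in 8 of 9 populations.

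In the Lztr1 knockout Tmsb10 was below the control in 8 of 10 populations, a count that 15.9% of 1208 genes of at least 50 CPM in all 10 populations reached, with values of 1881 CPM in monocyte lineage-like, 2808 CPM in plasmacytoid dendritic cell-like and 224 CPM in erythroid progenitor-like cells. Its median log2 ratio was -0.14, and in cells of 5000 to 15000 UMIs it was below in only 5 of 9 populations. As a share of thymosin UMIs, Tmsb10 was below the control in 9 of 10 populations of Rit1-M90I, with a median difference of -4.34 percentage points, and in 5 of 10 of the Lztr1 knockout. No such count over other gene pairs is given, so these do not set the thymosin pair apart.

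Actb and Actg1 differed from the control by small amounts. In the Lztr1 knockout Actb was above the control in 8 of 10 populations, with a median log2 ratio of 0.11, and Actg1 was below it in 7, with a median of -0.07. As many as 25.2% of the 1208 genes were above the control in at least 8 of the 10 populations. Basophil and mast cell-like cells held 6014 CPM of Actb against 4956 CPM in the control, and 1673 against 1744 CPM of Actg1. In Rit1-M90I Actb was below the control in 8 of 10 populations, with 2748 against 3312 CPM in monocyte lineage-like cells, and 23.3% of 1157 genes were below in at least 8. Actg1 was below it in 6 and above it in 4, with a median of -0.01. The Actg1 share of actin UMIs was below the control in 10 of 10 populations of the Lztr1 knockout, by a median of -2.01 percentage points, with intervals apart in 4. In Rit1-M90I it was above in 8 of 10, by a median of 1.81 points, with intervals apart in 3. Lymphoid progenitor-like cells showed it as 24.3% in the control, 21.8% in Lztr1 knockout cells and 28.2% in Rit1-M90I. Other pairs of genes were not counted in this way, so these counts of populations do not set the actin pair apart. When clusters replaced the gates, Actb was above the control in 5 of 9 populations of the Lztr1 knockout.

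Pfn1 and Cfl1 were more often above than below the control in Lztr1 knockout cells. Cfl1 was above the control in 9 of 10 populations with a median log2 ratio of 0.16 and Pfn1 in 8 with a median of 0.05, beside the 25.2% of all genes that reached 8. In Rit1-M90I Cfl1 was above in 8 of 10 populations with a median of 0.07, and 13.5% of genes reached 8. Cfl1 in basophil and mast cell-like cells measured 742 CPM in the control, 903 CPM in Lztr1 knockout cells and 863 CPM in Rit1-M90I. Pfn1 in stem and multipotent-like cells was at 794, 948 and 812 CPM. Coro1a was below the control in 9 of 10 populations of the Lztr1 knockout and in 7 of 10 of Rit1-M90I, with medians of -0.07 and -0.15. Of genes of at least 50 CPM in all 10 populations, 15.9% and 23.3% were below in at least 8, a count that 7 does not reach. Coro1a is not one of those genes, being under 50 CPM in erythroid progenitor-like cells, so the shares are only a rough guide. In plasmacytoid dendritic cell-like cells Coro1a was at 1181, 1136 and 991 CPM.

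T cell-like cells of the Lztr1 knockout had lower levels of all 7 members than those of the control, with 59 cells against 587. Tmsb4x measured 12272 CPM in the control, 9290 CPM in Lztr1 knockout cells and 11090 CPM in Rit1-M90I, and Coro1a measured 1123, 855 and 1013 CPM. The median log2 ratio of the members was -0.28, where that of 2818 genes was 0.02 and 4.54% of them were called lower. The summed level of the T cell markers themselves was 5108, 4051 and 4688 CPM and that of neutrophil progenitor markers 73.1, 222 and 240 CPM in the same 3 libraries. Monocyte lineage markers were at 302, 407 and 303 CPM and plasmacytoid dendritic cell markers at 82.8, 199 and 127 CPM. Some lists went the other way, such as NK cell markers, at 1539, 1192 and 1414 CPM. The part of such cells in the result was not tested. The interval of Cfl1 held 1, and the median cell held 2595 UMIs in the control, 3498 in Lztr1 knockout cells and 3080 in Rit1-M90I. Plasma cell-like cells of the Lztr1 knockout had all 7 members above the control, with a median of 0.11 beside a median of 0.13 over all genes.

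**Figure D5:**
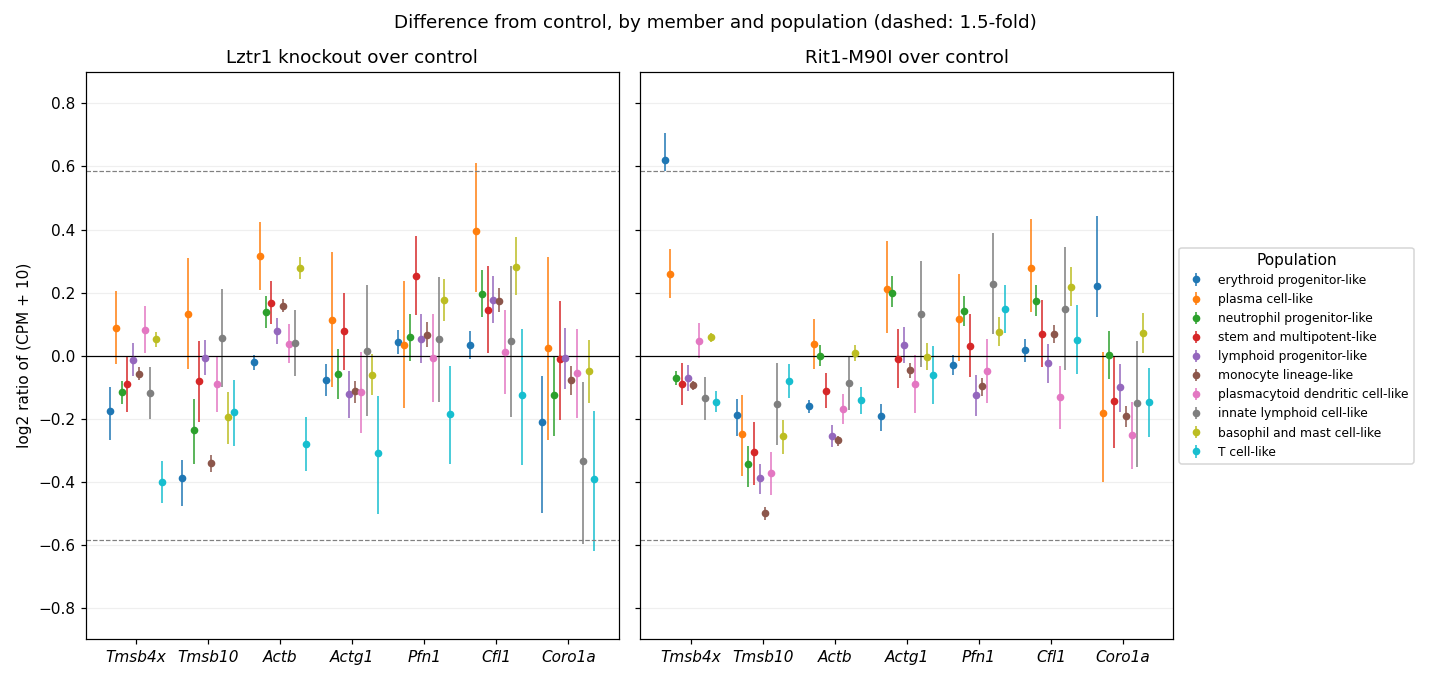
Log2 ratio of (CPM + 10) of each mutant library over the control for each member, with points for the 10 populations and 95% counting intervals; dashed lines mark 1.5-fold. Tmsb4x in erythroid progenitor-like cells of Rit1-M90I, at 0.62, is the value beyond the lines, and all Tmsb10 points of Rit1-M90I lie below 0.

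Among the listed regulators, 482 gene by population values of at least 50 CPM were compared in Lztr1 knockout cells, of which 6 were called higher and 4 lower, beside 1.93% and 1.45% over all genes. In Rit1-M90I 478 were compared, of which 4 were called higher and 1 lower, beside 0.791% and 0.673%. These counts were near or below the shares over all genes. The most abundant gene of each group in the control was, by mean over the populations, Myl6, a myosin light chain, at 735 CPM, Arhgdib at 707 CPM, Arpc2 at 507 CPM, the actin bundler Tagln2 at 402 CPM, the talin gene Tln1 at 266 CPM and the capping subunit Capzb at 237 CPM. Lower mean levels were found for Msn at 186 CPM, Brk1 at 175 CPM, Wdr1 at 93.1 CPM, Dstn at 91.2 CPM, Coro2a at 79.5 CPM and the serum response factor coactivator Mrtfa at 30.3 CPM. Medians of the regulators were taken over the 5 populations with at least 100 cells in every library (lymphoid progenitor-like, neutrophil progenitor-like, monocyte lineage-like, erythroid progenitor-like and basophil and mast cell-like), among genes of at least 50 CPM in most of them, and the order of genes differs over all 10. Dstn, which encodes destrin, a close relative of cofilin, had the highest such median log2 ratio in Rit1-M90I, at 0.35, followed by Tpm4 at 0.29 and Rdx at 0.22, and Fmnl1 the lowest at -0.17, before Myl6 at -0.11 and Was at -0.10. In the Lztr1 knockout Rdx, Tpm4 and Coro2a were highest, at 0.16, 0.15 and 0.15, and Was was lowest at -0.19, before Arpc1b and Twf2 at -0.11. Dstn was called higher in monocyte lineage-like and plasma cell-like cells of Rit1-M90I, with log2 ratios of 0.65 and 0.78, and Mrtfa, the factor that carries the actin signal to the nucleus, was under the 50 CPM minimum by its mean.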

How the data were processed

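Libraries were made with 10x 3' v3 chemistry per the labels' protocols. The authors deposited unnormalized UMI counts for each gene and cell barcode. Cell Ranger 6.1.1 made them per the file headers. The submitters' processing notes name the mm10 build and Seurat 4.1.0. Barcodes of at least 1000 UMIs and 500 genes and at most 10% mitochondrial UMIs were kept, which removed 11.2%, 19.6% and 15.2% of the control, Lztr1 knockout and Rit1-M90I barcodes. Doublets called by scrublet in scanpy 1.11.5 were removed (3.32%, 3.47% and 4.58%). A cell joined the population whose list, of 18 lists with 168 markers, had the largest share detected, with at least 3 markers; that number was set after the data were seen. UMIs were summed per library and population, scaled to CPM, and ratios given exact conditional 95% intervals (scipy 1.17.1). A call needed 1.5-fold on log2(CPM + 10); the code was tested on simulated counts. No column of the tables was left unassigned. Median depth was 6861, 9922 and 6590 UMIs a cell.

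The members and lists were chosen with earlier results of these data known. Named genes were the 7 members, the 3 genes most correlated with each over the control populations, the most abundant listed actin regulator of each group, and the 3 highest and 3 lowest regulators by median log2 ratio per mutant. The regulators named in the erythroid comparisons, and the genes named for single calls, were chosen after their values were seen.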

Additional observations from a re-analysis of the deposited data

How the results depend on the processing

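No paired analysis was possible because each genotype has 1 library, and for the same reason none could be left out. The single member ratio that was called kept its sign over 12 alternatives. Of all member ratios, 99 of 126 kept their sign with clusters in place of gates, 103 of 126 in cells of 5000 to 15000 UMIs and at least 126 of 140 under each of the other 10, so the counts above and below the control depend on these choices. The count of members called higher in Rit1-M90I, 1 as reported, was 0 with the stricter filter, 0 with 1 more marker required and 0 in cells of 5000 to 15000 UMIs, and 2 where the second marker list could reach at most 0.75 of the first. For the Lztr1 knockout, 0 as reported, it was 1 at that depth (Tmsb10 in innate lymphoid cell-like cells) and 1 with the margin (Cfl1 in plasma cell-like cells). Actb was above the control in 5 populations with clusters in place of gates, and Tmsb10 below it in 5 at fixed depth, both for the Lztr1 knockout and of 9 populations. Calls among the other actin regulators were less steady. In the Lztr1 knockout the higher calls, 6 as reported, were 3 with the median ratio set to 1, 16 at fixed depth, 13 with no minimum CPM, 10 with the margin and 3 without immunoglobulin genes in the total. Lower calls, 4 as reported, were 8 with the stricter filter, 8 without hemoglobin, mitochondrial and ribosomal protein genes in the total, 8 at fixed depth, 13 with no minimum and 7 with the margin. In Rit1-M90I the higher calls, 4 as reported, were 7, 7, 9 and 12 with the stricter filter, the smaller total, fixed depth and no minimum. Lower calls, 1 as reported, were 0 with 1 more marker, 2 with clusters, 2 with the smaller total, 4 at fixed depth, 6 with no minimum and 2 with the margin. The causes were not tested. The margin, the total without immunoglobulin genes and the alternatives for the erythroid comparisons were added after the data were seen. The counts of members and regulators lower in late erythroid cells (4 and 13) were 3 to 4 and 10 to 14, and those at or below 0.5 times the median in erythroid cells (4 and 28) were 4 and 25 to 29. At fixed depth Coro1a was not counted among the lower genes, its mean being under 50 CPM.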

Other observations

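Conventional dendritic cell-like cells, too few for the comparisons (8, 12 and 10 in the control, Lztr1 knockout and Rit1-M90I), had the highest Tmsb4x and Actb of any population in each library, at 13544, 19785 and 21910 CPM and at 9564, 12818 and 11759 CPM. The 7 members made up 3.77%, 4.68% and 4.95% of their UMIs, where the erythroid progenitor-like cells gave 0.495%, 0.483% and 0.471%. Dendritic cells are known for their actin-rich protrusions. In the control, the Tmsb4x level of conventional dendritic cell-like cells rested on 8 cells with 47991 UMIs. It lay close to the 12998 CPM of basophil and mast cell-like cells, so its first place there is uncertain.

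Within basophil and mast cell-like cells Tmsb4x varied widely between cells of the control, with a 10th percentile of 3721 CPM, a median of 17567 CPM and a 90th percentile of 29611 CPM, beside a median depth of 2778 UMIs a cell. In T cell-like cells, with 2595 UMIs, the same percentiles were 8287, 11890 and 16483 CPM.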
